A study of Mus musculus with 7 samples.

Results

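The interleukin-10 axis was followed in mouse macrophages through 8 genes chosen by name. They are the cytokine gene Il10, its receptor chains Il10ra and Il10rb, the family member Il19, and Sbno2, Nfil3, Bcl3 and Il4ra, which are tied to the anti-inflammatory response. They make up 8 of the 23337 genes in the tables. All 8 were among the 11096 genes tested, which had a mean of at least 1 TPM (length-scaled transcript abundance) over the 7 libraries. Il19 passed that minimum only through the LPS libraries.

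The cells were bone marrow-derived macrophages, grown from the marrow of male mice aged 6 to 8 weeks with the growth factor M-CSF at 25 ng/ml for 7 days. Wild-type (WT) and TGM2KO (KO) cells, the latter lacking the crosslinking enzyme transglutaminase 2, were kept without stimulus (M0) or exposed to lipopolysaccharide (LPS), a component of bacterial cell walls, at 10 ng/ml for 6 hours. WT M0, WT LPS and KO LPS had n = 2 each and KO M0 had n = 1, and all 4 groups shared the M-CSF culture. The sources used here do not give the knockout allele or the strain. The labels do not state that replicates are separate animals or cultures, and p-values therefore measure the spread among these libraries alone, which may be technical. The lone KO M0 library has no replicate. TPM are scaled for transcript length and to a common total and keep no depth, so the sequencing depth is unknown.

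Tgm2 checked the genotype labels: it stood at 199 to 433 TPM in the 4 wild-type libraries and at 19.2 to 50.7 TPM in the 3 knockout libraries. Xist, the RNA made where an X chromosome is silenced, went against the male label in both WT LPS libraries. It stood at 47.2 and 55.4 TPM there and at 0.00535 TPM or listed at 0 in the other 5. Every comparison with WT LPS carries that difference, whose part in the results was not tested. The replicates of WT M0 were also farther from each other (median absolute log2 difference 0.221 over the tested genes) than WT M0 replicate 2 was from KO M0 (0.0959). Macrophage markers summed to 42278 to 47589 TPM in untreated and 32590 to 35907 TPM in LPS libraries. Most of that sum was Lyz2, at 28492 to 42151 TPM. With LPS, Csf1r and Cd68 were called lower and Fcgr1 higher in both genotypes. B cell markers stood at or below 2.11 TPM in sum, with Pax5 listed at 0 throughout, and mast cell and basophil markers at or below 0.875 TPM, with 5 of 7 listed at 0 throughout. T and NK cell markers summed to 12.3 to 15.8 TPM in untreated and 1.78 to 2.47 TPM in LPS libraries, with Cd3g listed at 0. The untreated sum was almost all Cd4 (11.6 to 14.4 TPM, and 1.19 to 1.50 TPM with LPS), and 7 of the 9 genes were under 1 TPM in every library. Lck went the other way, at 0.0441 to 0.261 TPM in untreated and 0.433 to 1.11 TPM in LPS libraries. Stromal markers summed to 21.0 to 39.7 TPM in untreated, 2.78 and 2.08 TPM in WT LPS and 2.35 and 5.26 TPM in KO LPS libraries. Of these, the collagen genes Col1a1 and Col1a2 were listed at 0 in both WT LPS libraries and called higher in KO LPS, at 1.18 and 1.56 TPM (adjusted p 0.0092) and at 0.692 and 0.831 TPM (adjusted p 0.0490). Dcn, the other tested gene of this list, was not called, at 2.71 and 2.04 TPM in WT LPS and 0.227 and 2.21 TPM in KO LPS. The Col1a1 call was lost with no filter (adjusted p 0.0756) and without KO LPS replicate 2 (adjusted p 0.0775), and that of Col1a2 in 8 of 11 alternatives, among them each that left out 1 library (adjusted p 0.0521 to 0.231). Neutrophil and precursor markers summed to 5.01 to 8.48 TPM in untreated, 208 and 333 TPM in WT LPS and 106 and 161 TPM in KO LPS libraries. That sum was almost all S100a8 (196 and 321 TPM in WT LPS, 96.9 and 152 TPM in KO LPS). S100a9, Mpo, Elane, Ngp and Ltf were under 1 TPM in every library. Camp, the other measured gene of this list, stood at or below 0.906 TPM in untreated and at 9.14 to 12.03 TPM in LPS libraries. It was called higher with LPS in both genotypes, but passed the minimum of 1 TPM only through the LPS libraries. Between KO LPS and WT LPS it was not called (log2 fold change -0.30, adjusted p 0.526). Dendritic cell markers summed to 1.17 to 4.13 TPM, with none of 6 at 0 throughout. The part of these cells in the LPS comparisons was not tested, and in bulk RNA fewer cells of a type cannot be told apart from less RNA per cell.

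Interleukin-10 is a secreted cytokine that macrophages make after sensing microbes and that damps inflammatory gene expression, in the same cell and in its neighbours. It binds the ligand-specific chain Il10ra, which pairs with the shared chain Il10rb. The kinases Jak1 and Tyk2 then phosphorylate Stat3, which enters the nucleus. Among the genes known to be raised this way are Socs3, a brake on cytokine receptors, and the nuclear regulators Sbno2, Nfil3 and Bcl3, as well as Il4ra, a chain of the interleukin-4 receptor. Fold changes below are differences of log2(TPM + 1), a scale that understates the change of a low gene. A gene was called at an adjusted p below 0.05, from limma with Benjamini-Hochberg adjustment over all 11096 genes.

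Of the 8 genes, 1 passed the test between knockout and wild-type macrophages under LPS, Il19, which was higher in KO LPS. Over all genes 7.16% were called in that comparison, 4.59% higher and 2.58% lower. LPS called 4 of the 8 in wild-type cells, with Il19 higher and Il10ra, Nfil3 and Il4ra lower, where 44.6% of all genes were called, 15% higher and 29.6% lower. In knockout cells it called 3, with Il10 and Il19 higher and Il4ra lower, where 38.1% of all genes were called, 13.8% higher and 24.3% lower. The shares of the 8 were thus near the background in both LPS comparisons. None of the 8 passed between untreated knockout and wild-type cells, or in the difference between the LPS responses (the knockout change minus the wild-type change, called the interaction), where 0.00901% and 1.37% of all genes were called. At an unadjusted p under 0.05 limma gave 0 of the 8 in the first and 2, Il10 and Il19, in the second. Over all 11096 genes it gave 154 in the first and 1160 in the second. Median log2 fold changes of the 8 were 0.10 for KO LPS against WT LPS (0.03 over all genes), -0.31 for LPS in wild-type cells (-0.21 over all genes) and -0.42 for LPS in knockout cells (-0.24 over all genes). Median-ratio scaling of the TPM moved the all-gene medians of both LPS comparisons to -0.01. The calls there became 2416 higher and 2348 lower in wild-type cells, in place of 1665 and 3284, and 2104 higher and 1854 lower in knockout cells, in place of 1533 and 2700. KO LPS against KO M0 was also fitted without both WT LPS libraries, and the same 3 genes were called.

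**Figure D1:**
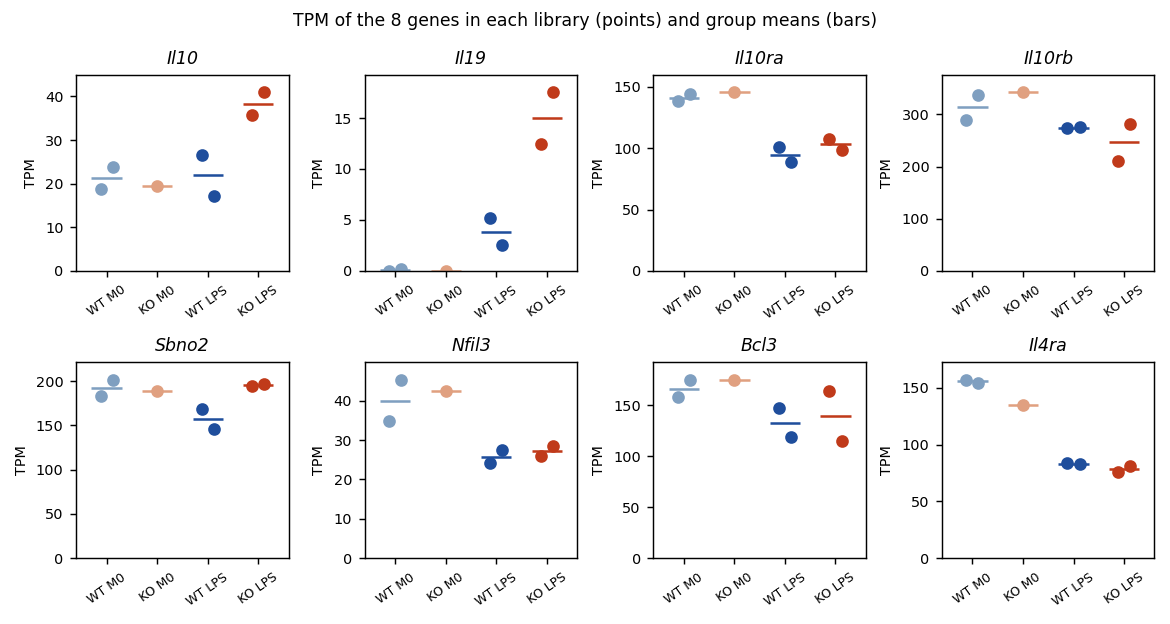
TPM (y axis, from 0) of the 8 genes by group (x axis), 1 point per library and a bar at each group mean. Both KO LPS points of Il10 and of Il19 lie above all other points, Il4ra and Il10ra are lower in all 4 LPS libraries than in the untreated ones, and the LPS groups of Il10rb and of Bcl3 overlap.

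**Figure D2:**
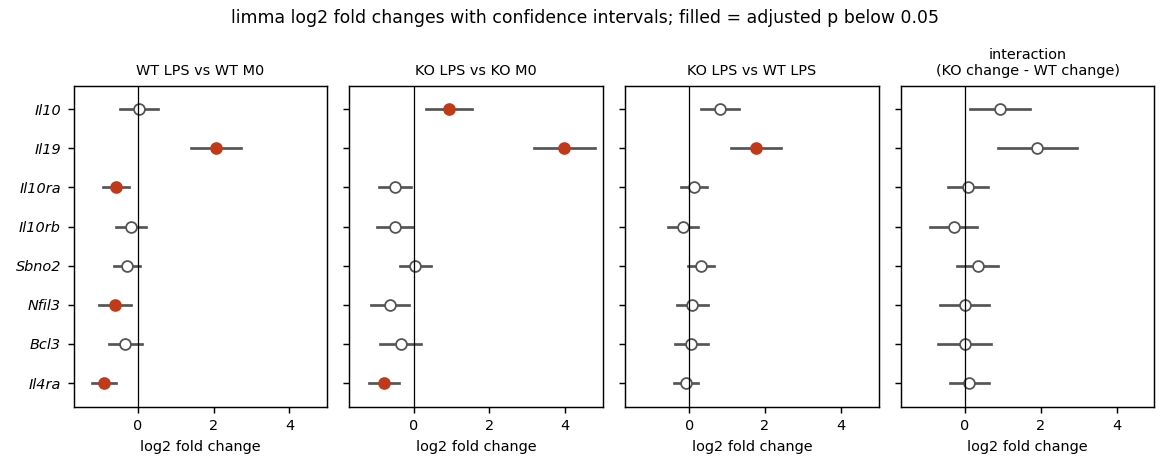
Log2 fold changes on the log2(TPM + 1) scale (x axis) of the 8 genes (y axis) in 4 comparisons, with 95% confidence intervals as lines. Filled points passed at an adjusted p below 0.05: 4 genes for LPS in wild-type cells, 3 for LPS in knockout cells, 1 for KO LPS against WT LPS and 0 for the interaction.

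Il10 mRNA was present in untreated macrophages and was most abundant in the knockout cells given LPS. It stood at 18.7 and 23.7 TPM in WT M0, 19.5 TPM in KO M0, 26.6 and 17.2 TPM in WT LPS, and 35.8 and 40.9 TPM in KO LPS. The first 3 groups overlapped, and both KO LPS libraries lay above the other 5. Group means were 21.2 ± 3.55 TPM in WT M0, 21.9 ± 6.59 TPM in WT LPS and 38.4 ± 3.61 TPM in KO LPS (SD, n = 2 each). LPS raised Il10 in knockout cells, with a ratio of mean TPM of 1.96 and a log2 fold change of 0.94 (SE 0.28, adjusted p 0.0218). Without both WT LPS libraries the adjusted p was 0.0122. The call was lost without KO LPS replicate 2 (log2 fold change 0.84, adjusted p 0.0842) and when low values were not filtered (adjusted p 0.0867). In wild-type cells the LPS change was 0.02 (SE 0.23, adjusted p 0.946), with a 95% confidence interval from -0.48 to 0.52.

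KO LPS and WT LPS did not overlap in Il10, but the difference did not pass the threshold. The ratio of mean TPM was 1.75, and the log2 fold change was 0.81 (SE 0.23, 95% interval 0.31 to 1.31, unadjusted p 0.00466, adjusted p 0.0588). The WT LPS replicates were far apart: without the higher of them, WT LPS replicate 1, the difference was 1.11 and passed (adjusted p 0.0284), without WT LPS replicate 2 it was 0.51 (adjusted p 0.396), and over all alternatives the adjusted p ran from 0.0284 to 0.396. The interaction was 0.91 (SE 0.36, unadjusted p 0.0275, adjusted p 0.365), so a difference between the LPS responses of Il10 was not shown.

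Il19, a cytokine of the same family that signals through the receptor of Il20ra and Il20rb, was nearly absent without LPS. It was listed at 0 and stood at 0.221 TPM in WT M0, was listed at 0 in KO M0, and reached 5.15 and 2.50 TPM in WT LPS and 12.5 and 17.5 TPM in KO LPS. The 3 untreated libraries, the WT LPS pair and the KO LPS pair formed steps that did not overlap. Under LPS the mean was 3.82 ± 1.87 TPM in wild-type and 15.0 ± 3.55 TPM in knockout cells (SD, n = 2 each), a ratio of 3.92. The log2 fold change between them was 1.77 (SE 0.30, 95% interval 1.11 to 2.43, adjusted p 0.00512). It lost its call with a pseudocount of 0.1 in place of 1 (log2 fold change 2.01, adjusted p 0.081) and with no filter (adjusted p 0.0942), and kept it in each fit that left out 1 library.

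LPS raised Il19 in both genotypes, by 2.07 in wild-type (SE 0.30, adjusted p 0.000275) and by 3.98 in knockout cells (SE 0.36, adjusted p 1.53e-05) on the log2(TPM + 1) scale. A gene that passed the minimum only through its LPS values had to differ here. The sizes depend on the pseudocount, since untreated libraries were at or near 0: with 0.1 they were 4.37 and 7.22. The interaction was 1.91 (SE 0.47, unadjusted p 0.00208, adjusted p 0.0936) and passed only without WT LPS replicate 1 (2.32, adjusted p 0.0371). Il19 lies next to Il10 on chromosome 1. Il10 spans chr1:131019845-131024970 on the plus strand and Il19 chr1:130932656-130945457 on the minus strand, 74.4 kb apart (GRCm38.p6, the assembly on which mm10 is built). Over the 7 libraries the log2 values of Il10 and Il19 had a Pearson r of 0.84, given as a description since the libraries share 4 groups. Of the other genes nearby, Il20 and Il24, 108.5 and 132.4 kb away, were listed at 0 in every library. Mapkapk2, a stress kinase 28.7 kb on the other side, stood at 574 to 1179 TPM and rose with LPS in both genotypes (log2 fold changes 0.61 and 0.92, adjusted p 0.00846 and 0.00319). The wild-type call was lost without WT LPS replicate 1 (adjusted p 0.0804).

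The promoter window of Il19 is shown because this gene had the widest relative range among the 8, and because Stat3, the factor behind the Il10 receptor, binds sites of the form TTCNNNGAA. RefSeq windows of GRCm38.p6 run from 250 bases before to 50 bases after a transcript start. They matched 5 of the 8 genes, Il19, Sbno2, Nfil3, Il4ra and Bcl3, with 7 windows. Capitals mark the match, TTCCCAGAA, which begins 225 bases before the start, in chr1:130940066-130940365 on the minus strand. This window lies inside the span of Il19 given above, and gene-level TPM do not show which start was used.
Il19: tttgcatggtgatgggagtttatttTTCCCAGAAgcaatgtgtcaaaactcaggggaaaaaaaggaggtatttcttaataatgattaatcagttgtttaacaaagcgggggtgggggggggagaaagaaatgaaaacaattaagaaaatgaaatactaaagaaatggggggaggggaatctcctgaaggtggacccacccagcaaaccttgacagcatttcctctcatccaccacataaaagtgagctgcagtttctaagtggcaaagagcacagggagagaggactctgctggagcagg
TTCNNNGAA occurred in 8.3% of all 32851 windows of 300 bases, which belong to 27025 genes, on both strands since it reads the same on each. The window of Il19 had a GC content of 44.0% and 1 CpG, against medians of 52.7% and 7 over all windows. The other letters searched on both strands were TTATGTAA and TTACGTAA (the D-box), TGACGTCA (a cAMP response element), TGACTCA (AP-1), GGGNNTTTC (part of a kappaB site), TATAAA and CCAAT, none of which occurred in this window.

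Other ligands and receptor chains of the family, taken as lists, gave few measured genes. Of 5 ligands in the tables, Il10 and Il19 were tested, and Il20, Il22 and Il24 were listed at 0 in every library. Among receptor chains Il22ra1 was listed at 0 throughout and Il20ra stood at 0.0683 TPM in KO M0 and was listed at 0 elsewhere. Il20rb, the chain through which Il19 signals together with Il20ra, stood at 1.51 and 1.36 TPM in WT M0, 0.833 TPM in KO M0, 5.50 and 4.89 TPM in WT LPS, and 9.77 and 9.18 TPM in KO LPS. Its groups were ordered like those of Il19 under LPS and did not overlap. The untreated levels of Il20rb were near the minimum of 1 TPM. LPS raised it by 1.35 in wild-type (adjusted p 0.000379) and by 2.51 in knockout cells (adjusted p 2.59e-05). The knockout difference under LPS was 0.76 (SE 0.20, adjusted p 0.0504) and passed without KO M0 (adjusted p 0.0468).

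Il10ra, the chain that gives the receptor its specificity, was lower after LPS. It stood at 138 and 144 TPM in WT M0, 146 TPM in KO M0, 101 and 88.4 TPM in WT LPS, and 107 and 98.8 TPM in KO LPS. All LPS libraries lay below all untreated ones, and the genotypes overlapped under LPS. LPS lowered it in wild-type cells, with a ratio of mean TPM of 0.670 and a log2 fold change of -0.58 (SE 0.15, adjusted p 0.0114). Median-ratio scaling ended that call (-0.36, adjusted p 0.0952), as did leaving out WT LPS replicate 2 (-0.48, adjusted p 0.101). In knockout cells the change was -0.49 (SE 0.19, adjusted p 0.0608). KO LPS against WT LPS gave 0.12, with a 95% interval from -0.22 to 0.46 (adjusted p 0.738).

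Il10rb, the shared chain also used by receptors for interleukin-22 and interferon lambda, was the most abundant of the 8 genes. Its level was 290 and 337 TPM in WT M0, 342 TPM in KO M0, 273 and 276 TPM in WT LPS, and 210 and 283 TPM in KO LPS. The KO LPS replicates lay farther apart than the means of the LPS groups. No comparison passed: the log2 fold change was -0.19 for LPS in wild-type (adjusted p 0.416), -0.49 for LPS in knockout cells (adjusted p 0.0991) and -0.17 for KO LPS against WT LPS (95% interval -0.56 to 0.22, adjusted p 0.667). Median-ratio scaling turned the wild-type change to 0.04, and without KO LPS replicate 2 the knockout change passed (-0.70, adjusted p 0.0324). Within each library Il10rb stood at 1.96 to 3.12 times the TPM of Il10ra. In the GENCODE M21 annotation, 13288 of the 19671 bases of Il10rb are shared with the gene model Gm21970 on the same strand, so reads there may belong to either.

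Among the 8 genes that carry the signal inside the cell, Tyk2 was higher in KO LPS than in WT LPS. This receptor-bound kinase stood at 33.5 to 40.4 TPM in the untreated libraries, 50.7 and 39.1 TPM in WT LPS, and 86.5 and 89.3 TPM in KO LPS. Both KO LPS libraries lay above all others. The log2 fold change was 0.97 (SE 0.18, adjusted p 0.00778), and the call was lost without WT LPS replicate 2 (0.78, adjusted p 0.0912), without KO LPS replicate 2 (0.94, adjusted p 0.0558) and with no filter (adjusted p 0.0621). Over all genes 4.59% were higher and 2.58% lower in this comparison, and the median was 0.03. In this list, of median 0.35, Tyk2 was 1 of 8 called higher, and 0 were lower. Its partner kinase Jak1 gave -0.06 (adjusted p 0.908).

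Stat3 itself stood at 125 to 142 TPM without LPS, 157 and 142 TPM in WT LPS, and 193 and 228 TPM in KO LPS. The knockout difference under LPS was 0.49 (SE 0.16, adjusted p 0.114). LPS raised it in knockout cells (0.65, adjusted p 0.0244), a call lost without KO LPS replicate 2 (adjusted p 0.0996) and in the fit of the compared groups alone (adjusted p 0.0548). In wild-type cells the change was 0.17 (adjusted p 0.425). LPS called 15% of all genes higher and 29.6% lower in wild-type cells, and 13.8% and 24.3% in knockout cells. Of the 8 signal genes it called 3 higher and 1 lower in wild-type cells, and 5 higher and 1 lower in knockout cells. Among them Socs1 and Socs3 rose in both, and the lower gene in both was Pias3, an inhibitor of Stat3. The Pias3 call was lost in wild-type cells without WT M0 replicate 2 or either WT LPS library (adjusted p 0.0682 to 0.132) and under median-ratio scaling (adjusted p 0.0661), and in knockout cells without KO LPS replicate 2 (adjusted p 0.0630). Socs3, the brake raised by Stat3, went from 166 and 163 TPM in WT M0 and 141 TPM in KO M0 to 608 and 500 TPM in WT LPS and 706 and 613 TPM in KO LPS. Its LPS changes were 1.74 (adjusted p 1.2e-05) and 2.22 (adjusted p 1.25e-05), and the knockout difference under LPS was 0.26 (adjusted p 0.436).

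Sbno2, a nuclear co-regulator of the Strawberry notch family, was as abundant in KO LPS as in untreated cells and lower in WT LPS. The WT M0 libraries held 183 and 202 TPM, KO M0 189 TPM, the WT LPS libraries 169 and 146 TPM, and the KO LPS libraries 194 and 197 TPM. Both WT LPS libraries lay below the other 5. No comparison passed the test. The log2 fold change was 0.31 for KO LPS against WT LPS (SE 0.15, 95% interval -0.02 to 0.65, unadjusted p 0.0653, adjusted p 0.288), -0.29 for LPS in wild-type cells (adjusted p 0.150) and 0.05 for LPS in knockout cells (adjusted p 0.869).

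Sbno2 lies at chr10:80056992-80106108 on the minus strand and has 3 RefSeq promoter windows. A pair of them is shown because each holds a TTCNNNGAA match close to its start. In capitals, TTCGCAGAA begins 26 bases before the start in chr10:80102653-80102952 (the first window) and TTCCCGGAA 24 bases before it in chr10:80101138-80101437 (the second), both on the minus strand.
Sbno2 window 1: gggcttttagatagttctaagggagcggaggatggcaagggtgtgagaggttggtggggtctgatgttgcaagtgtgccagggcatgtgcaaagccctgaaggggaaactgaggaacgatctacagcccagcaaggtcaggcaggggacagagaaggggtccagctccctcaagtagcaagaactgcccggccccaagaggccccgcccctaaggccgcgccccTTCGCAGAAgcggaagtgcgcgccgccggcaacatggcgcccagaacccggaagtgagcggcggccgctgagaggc
Sbno2 window 2: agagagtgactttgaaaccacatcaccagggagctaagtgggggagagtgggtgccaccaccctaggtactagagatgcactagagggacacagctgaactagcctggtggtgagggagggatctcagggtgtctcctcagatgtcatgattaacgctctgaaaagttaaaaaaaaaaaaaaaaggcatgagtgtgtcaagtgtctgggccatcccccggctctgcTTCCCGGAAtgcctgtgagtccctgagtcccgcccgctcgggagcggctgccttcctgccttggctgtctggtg
The third window held none of the letters searched, and gene-level TPM do not show which start was used.

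Nfil3, a transcriptional repressor that binds D-box sequences and is known to restrain Il12b, was lower after LPS. The WT M0 libraries held 34.7 and 45.3 TPM, KO M0 42.4 TPM, the WT LPS libraries 24.2 and 27.4 TPM, and the KO LPS libraries 26.0 and 28.6 TPM. The LPS libraries lay below the untreated ones, and the genotypes overlapped. LPS lowered it in wild-type cells, with a ratio of mean TPM of 0.645 and a log2 fold change of -0.60 (SE 0.19, adjusted p 0.0221). Without WT M0 replicate 2 (-0.42, adjusted p 0.142) or WT LPS replicate 1 (-0.52, adjusted p 0.133) the call was lost, as it was under median-ratio scaling (-0.39, adjusted p 0.0694) and with no filter (adjusted p 0.0502). In knockout cells the change was of like size, -0.62 (SE 0.23, adjusted p 0.0540), and passed without WT M0 replicate 1 (adjusted p 0.0428) or WT M0 replicate 2 (adjusted p 0.0429). KO LPS against WT LPS gave 0.08 (95% interval -0.33 to 0.49, adjusted p 0.875). The promoter window of Nfil3 had a GC content of 81.7% with 54 CpG and held CCAAT on the reverse strand, 77 bases before the start, which 37.4% of all windows hold on either strand.

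Of 8 tested D-box and clock genes with which Nfil3 is known to act, 6 fell and 0 rose with LPS in each genotype, where 29.6% (wild-type) and 24.3% (knockout) of all genes fell. The list medians were -1.65 in wild-type and -1.43 in knockout cells, against -0.21 and -0.24 over all genes. The 6 were Dbp and Tef, activators at the D-box, the repressors Nr1d1 and Nr1d2, and Per2 and Per3. Dbp, Per2 and Per3 passed the minimum of 1 TPM only through the untreated libraries, so their falls were partly fixed by that filter. Dbp stood at 6.41 and 8.38 TPM in WT M0, 7.33 TPM in KO M0, 0.814 and 1.14 TPM in WT LPS, and 0.968 and 0.986 TPM in KO LPS. It fell by 2.08 in both genotypes (adjusted p 3.53e-05 and 0.000197). Tef fell by 1.81 and 2.09 (adjusted p 5.21e-05 and 0.000104). The core clock factor Arntl was not called (-0.21 and -0.46, adjusted p 0.461 and 0.209), nor was Per1 (-0.14 and -0.36, adjusted p 0.582 and 0.253). In knockout cells the calls of Per2 (adjusted p 0.0727) and Per3 (adjusted p 0.0923) were lost without KO LPS replicate 1, and that of Per3 also with median-ratio scaling (adjusted p 0.0536) and no filter (adjusted p 0.0535). In knockout cells under LPS 4.59% of all genes were higher and 2.58% lower than in wild-type cells. Of the 8, 1 was higher and 0 lower (list median 0.11). It was Nr1d1, at 1.21 and 1.30 TPM in WT LPS and 3.48 and 2.99 TPM in KO LPS (log2 fold change 0.90, adjusted p 0.0266). That call was lost without any 1 of the 4 LPS libraries (adjusted p 0.0918 to 0.135), with no filter (adjusted p 0.106) and in the fit of the compared groups alone (adjusted p 0.0528).

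**Figure D3:**
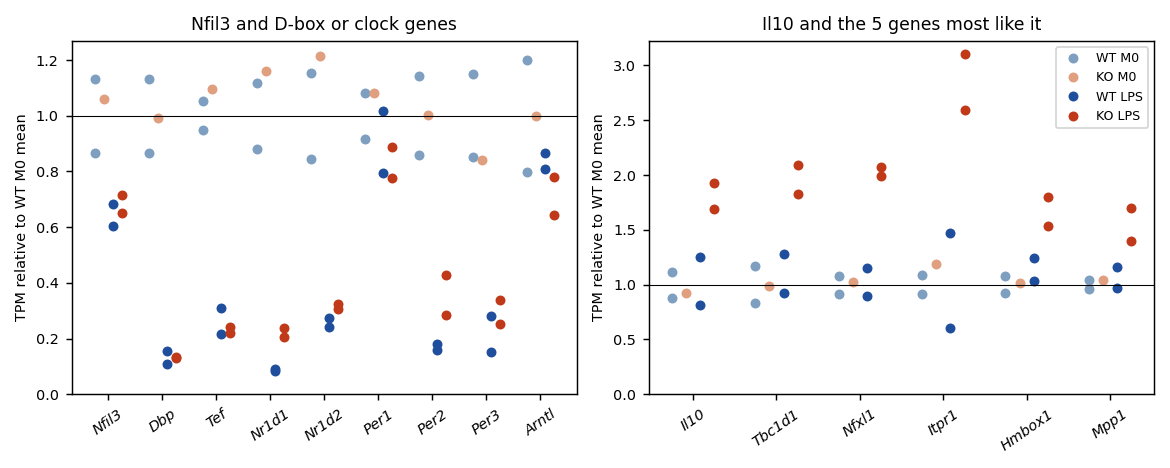
TPM relative to the WT M0 mean (y axis, line at 1), 1 point per library coloured by group, for Nfil3 with D-box and clock genes (left) and for Il10 with the 5 genes most like it (right). Nfil3 lies at 0.604 to 0.714 in the LPS libraries and Dbp at 0.110 to 0.154, while Il10 and its 5 companions are highest in both KO LPS libraries.

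Bcl3, a nuclear relative of the IkappaB proteins that holds p50 dimers on DNA, differed more between replicates than between groups under LPS. It stood at 158 and 175 TPM in WT M0, 174 TPM in KO M0, 147 and 118 TPM in WT LPS, and 164 and 115 TPM in KO LPS. No comparison passed: the wild-type LPS change was -0.33 (adjusted p 0.201) and the knockout one -0.34 (adjusted p 0.292). The KO LPS minus WT LPS difference was 0.06 (95% interval -0.38 to 0.50, adjusted p 0.924) and changed sign when WT LPS replicate 2 (-0.10) or KO LPS replicate 1 (-0.20) was left out. Antisense gene models cover 2264 and 2073 bases of Bcl3 in the annotation, and the sources used here do not say whether reads were assigned by strand. Of 6 partners and other IkappaB genes, 3 rose and 2 fell with LPS in wild-type cells and 2 rose and 0 fell in knockout cells. Over all genes 15% rose and 29.6% fell in wild-type cells, and 13.8% rose and 24.3% fell in knockout cells. The wild-type calls of Cyld and Nfkbia (higher) and of Nfkbid and Nfkb1 (lower) were each lost without at least 1 library. They were lost without WT LPS replicate 1 (Cyld 0.0600, Nfkbia 0.152, as adjusted p), WT LPS replicate 2 (Cyld 0.0968, Nfkbid 0.128, Nfkb1 0.0963), WT M0 replicate 1 (Cyld 0.144, Nfkbid 0.0684) or WT M0 replicate 2 (Nfkbia 0.0693, Nfkb1 0.0518). Median-ratio scaling ended those of Nfkbid (adjusted p 0.0958) and Nfkb1 (adjusted p 0.0924), and no filter those of Cyld (adjusted p 0.0544) and Nfkbid (adjusted p 0.0520). Nfkbiz, another nuclear IkappaB, rose in both and kept both calls in every alternative run, by 1.30 (adjusted p 0.000125) and 1.82 (adjusted p 6.4e-05). Under LPS 4.59% of all genes were higher and 2.58% lower in knockout cells. Of the 6, 1 was higher and 0 lower, Nfkb1, which encodes the p50 precursor. Its level was 254 and 229 TPM in WT LPS and 357 and 361 TPM in KO LPS (log2 fold change 0.57, adjusted p 0.0450). The call was lost without either WT LPS library, without either KO LPS library and without either WT M0 library (adjusted p 0.0508 to 0.326), and with median-ratio scaling (adjusted p 0.0668), no filter (adjusted p 0.0840) and a minimum mean of 5 TPM (adjusted p 0.0510).

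Il4ra, the chain that binds interleukin-4 and, with Il13ra1, interleukin-13, showed the largest LPS decrease of the 8 in both genotypes. It stood at 157 and 154 TPM in WT M0, 135 TPM in KO M0, 83.5 and 83.1 TPM in WT LPS, and 75.7 and 80.8 TPM in KO LPS. All LPS libraries lay well below all untreated ones. LPS lowered it in wild-type cells, to a ratio of mean TPM of 0.535 with a log2 fold change of -0.89 (SE 0.15, adjusted p 0.000675). In knockout cells it fell by 0.78 on the log2 scale (SE 0.18, adjusted p 0.00642), and by the same amount without both WT LPS libraries (adjusted p 0.0147). Both calls held in every alternative run, with adjusted p of 0.000606 to 0.00868 and 0.00668 to 0.0417, which also covers median-ratio scaling. The genotypes under LPS differed by -0.09 (95% interval -0.42 to 0.23, adjusted p 0.810).

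Il4ra lies at chr7:125552271-125579474 on the plus strand, and its window chr7:125552021-125552320 is shown because both LPS calls of this gene held in every alternative run. In capitals is GAAAGCCCC, the reverse of GGGNNTTTC, part of a kappaB site, which begins 22 bases into the transcript and is of a form that 4.36% of all windows hold.
Il4ra: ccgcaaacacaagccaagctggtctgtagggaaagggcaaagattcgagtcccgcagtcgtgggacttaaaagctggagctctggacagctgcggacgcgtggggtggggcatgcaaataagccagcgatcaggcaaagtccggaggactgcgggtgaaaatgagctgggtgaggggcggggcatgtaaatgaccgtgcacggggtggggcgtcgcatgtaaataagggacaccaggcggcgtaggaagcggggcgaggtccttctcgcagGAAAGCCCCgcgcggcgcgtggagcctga
It held none of the other letters searched, and the window of Bcl3 held none at all. The antisense gene model Gm44876 covers 1342 bases of Il4ra.

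The partners of Il4ra moved in both directions with LPS. Of 5 tested, 2 rose and 2 fell in wild-type cells, and 1 rose and 2 fell in knockout cells. Over all genes 15% rose and 29.6% fell in wild-type cells, and 13.8% rose and 24.3% fell in knockout cells. Between the genotypes under LPS limma called 0 of the 5, and 0 had an unadjusted p under 0.05. Over all 11096 genes 7.16% were called there, and 2215 had an unadjusted p under 0.05. Il2rg, the common gamma chain, stood at 260 and 271 TPM in WT M0, 328 TPM in KO M0, 437 and 501 TPM in WT LPS, and 530 and 534 TPM in KO LPS. It rose in both genotypes, by 0.82 and 0.70 (adjusted p 0.00125 and 0.0120). Stat6, the factor that carries the interleukin-4 signal, fell by 0.62 (adjusted p 0.00669, 0.0640 without WT LPS replicate 1) and 0.83 (adjusted p 0.00503). Il13ra1 was called higher (1.14, adjusted p 0.00297) and the kinase Jak3 lower (-0.77, adjusted p 0.00693) in wild-type cells, and the adaptor Irs2 lower in knockout cells (-0.92, adjusted p 0.0395). The call of Jak3 was lost without WT M0 replicate 2 (adjusted p 0.0510) and without WT LPS replicate 1 (adjusted p 0.0617). That of Irs2 was lost without either KO LPS library (adjusted p 0.0578 and 0.136), with median-ratio scaling (adjusted p 0.0952) and with no filter (adjusted p 0.126).

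Other genes known to be raised by interleukin-10 did not move together. Of 10 tested besides the 8 genes above, 1 was higher and 1 lower in KO LPS than in WT LPS, where 4.59% and 2.58% of all genes were. The lower was Slpi, a secreted protease inhibitor, at 10.2 to 18 TPM in untreated, 876 and 899 TPM in WT LPS and 416 and 404 TPM in KO LPS libraries. The knockout difference was -1.11 (SE 0.22, adjusted p 0.0134), and its call was lost without either WT LPS library (adjusted p 0.0596 and 0.0847), without KO LPS replicate 2 (adjusted p 0.0725) and with no filter (adjusted p 0.135). Summed neutrophil and precursor markers, some of which, such as S100a8, activated macrophages also express, were also lower in KO LPS than in WT LPS (106 and 161 against 208 and 333 TPM), and their part in Slpi was not tested. The higher was Tnip3, an inhibitor of NF-kappaB signalling, at 97.8 and 109 TPM in WT LPS and 148 and 207 TPM in KO LPS (0.75, adjusted p 0.0486). That call was lost in 9 of the alternatives, among them those without either WT LPS library (adjusted p 0.216 and 0.156) and without KO LPS replicate 2 (adjusted p 0.293). LPS called 4 of the 10 higher and 4 lower in wild-type cells, against 15% and 29.6% of all genes. In knockout cells it called 3 and 3, against 13.8% and 24.3%. Il1rn, the interleukin-1 receptor antagonist, rose by 2.52 and 2.29 (adjusted p 1.37e-06 and 1.46e-05). Cd163, the haemoglobin scavenger receptor, fell by 1.50 and 1.89 (adjusted p 0.000287 and 0.000293), and Etv3, a repressor, fell by 1.74 and 1.72 (adjusted p 1.27e-05 and 8e-05).

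Of 23 tested genes known to control Il10 transcription, 2 were higher and 1 lower in KO LPS than in WT LPS, where 7.16% of all genes were called. The list median was -0.05. Fos, an AP-1 subunit, was the lower. It stood at 182 and 254 TPM in WT M0, 228 TPM in KO M0, 50.7 and 63.6 TPM in WT LPS, and 22.6 and 21.1 TPM in KO LPS, with no overlap between the LPS groups. The log2 fold change was -1.34 (SE 0.20, adjusted p 0.0024), lost only with no filter (adjusted p 0.0582). Cebpd, a C/EBP factor, was higher in KO LPS, at 261 and 251 TPM against 165 and 132 TPM (0.79, adjusted p 0.0155). It lost its call without WT LPS replicate 2 (adjusted p 0.179), without KO LPS replicate 1 (adjusted p 0.0714) or replicate 2 (adjusted p 0.0683) and with no filter (adjusted p 0.0703). The other higher gene was Nfkb1, described with Bcl3. Maf, a factor that binds the Il10 promoter, stood at 180 to 338 TPM and gave 0.06 (adjusted p 0.934). With LPS 5 rose and 6 fell in wild-type cells, against 15% and 29.6% of all genes. In knockout cells 5 rose and 7 fell, against 13.8% and 24.3%. Map3k8, the kinase through which the Tlr4 signal reaches Erk, rose by 1.09 and 1.59 (adjusted p 0.000385 and 0.000148). Rps6ka4, a kinase of Creb, rose by 1.39 and 1.24 (adjusted p 4.94e-05 and 0.000548).

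**Figure D4:**
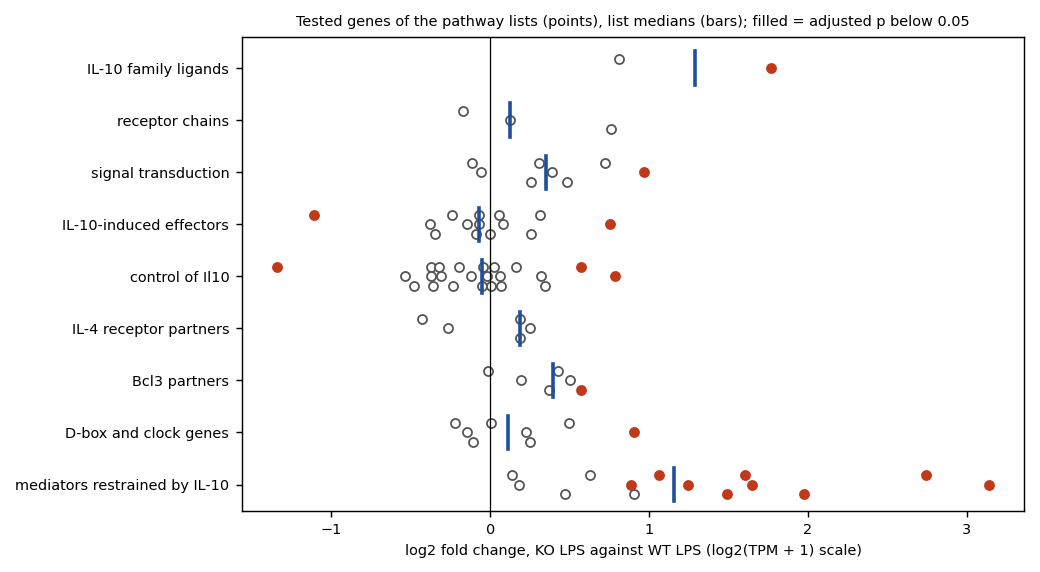
Log2 fold changes of KO LPS against WT LPS on the log2(TPM + 1) scale (x axis) for the tested genes of 9 lists (y axis), 1 circle per gene, with a bar at each list's median. Filled circles passed at an adjusted p below 0.05: 9 of 14 mediators that interleukin-10 restrains, and at most 3 genes in each of the other lists. Over all genes 4.59% were higher and 2.58% lower. The lists were chosen with earlier results of these libraries known.

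Of 14 tested cytokines and mediators that interleukin-10 is known to restrain, 9 were higher and 0 lower in KO LPS than in WT LPS, where 4.59% of all genes were higher. The list median was 1.15, against 0.03 over all genes. Il1a, Il1b, Cxcl2, Ccl3 and Cd86 did not pass. Of the 9, Cxcl1, Il12b and Il6 kept their calls in every alternative run, and the other 6 lost theirs in at least 1. This list was chosen with earlier results of these libraries known, so its direction is no independent evidence. LPS called 12 of them higher and 1 lower in wild-type cells and 13 and 1 in knockout cells, the lower being Cd86. Over all genes 15% were higher and 29.6% lower in wild-type cells, and 13.8% and 24.3% in knockout cells. Il6, Il12a, Il12b and Nos2, at or below 0.793 TPM in each untreated library, passed the minimum of 1 TPM only through the LPS libraries and so had to be higher there. Il12b, the p40 chain of interleukin-12 and interleukin-23, reached 11.3 and 7.68 TPM in WT LPS and 85.3 and 95 TPM in KO LPS (3.14, adjusted p 7.56e-05). Its TPM was 0.425 and 0.446 times that of Il10 within the WT LPS libraries and 2.38 and 2.32 times within the KO LPS libraries. Il6 stood at 5.17 and 4.10 times Il10 in WT LPS and at 17.2 and 17.5 times in KO LPS, and these ranges did not overlap. Tnf stood at 27.9 times Il10 in both WT LPS libraries and at 39.7 and 26.7 times in KO LPS, which overlapped. The Tnf difference itself was 1.06 (adjusted p 0.0182), a call lost without WT LPS replicate 2 (0.75, adjusted p 0.177), without KO LPS replicate 1 (0.87, adjusted p 0.0966), with median-ratio scaling (adjusted p 0.0652) and with no filter (adjusted p 0.159).

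Without LPS the 8 genes stood close together in the genotypes. Log2 fold changes of KO M0 against WT M0 ran from -0.20 for Il4ra, with a 95% interval from -0.60 to 0.19, to 0.13 for Il10rb. All 8 adjusted p-values were 1 by limma, and 154 of all genes had an unadjusted p under 0.05. For Il10 the difference was -0.10, with an interval from -0.72 to 0.51, which takes in differences as large as some of those under LPS. The KO M0 value lay inside the range of WT M0 for Il10, Sbno2, Nfil3 and Bcl3, at its lower end for Il19, above it for Il10ra and Il10rb and below it for Il4ra. The single KO M0 library was assumed to vary like the other groups.

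The genes whose log2 values were most like those of each of the 8 over the 7 libraries were sought among 8328 genes with a mean of at least 5 TPM. For Il10 they were Tbc1d1, a regulator of glucose transporter traffic (Pearson r 0.986), Nfxl1 (0.971), the calcium channel gene Itpr1 (0.968), Hmbox1 (0.967) and Mpp1 (0.965), and 10 genes in all exceeded 0.95. Tbc1d1 stood at 15.2 and 21.5 TPM in WT M0, 18.1 TPM in KO M0, 23.4 and 17 TPM in WT LPS, and 33.6 and 38.4 TPM in KO LPS. Il19 was followed by Pla2g16 (0.998), Plekha2 (0.997) and Ch25h, which makes 25-hydroxycholesterol (0.996), Il10ra by Ralgds, Ang and Stk40 (0.995 to 0.997), and Il10rb by Fundc1, Zfp433 and Alg13 (0.966 to 0.974). For Sbno2 the nearest were Ehd4, Ankrd33b and Camkk2 (0.967 to 0.986), for Nfil3 Lman2, Dnajc3 and Kif1b (0.994 to 0.997), and for Il4ra Degs2, Bola3 and Alkbh6 (0.996 to 0.997). Bcl3 was closest to Junb (0.980), Fiz1 (0.977) and Tgfb1 (0.974). Junb, an AP-1 subunit, had the same split between replicates as Bcl3, at 429 and 285 TPM in WT LPS and 565 and 279 TPM in KO LPS. From 345 to 739 genes exceeded 0.95 for Il19, Il10ra, Nfil3 and Il4ra, which separate LPS from untreated libraries, and 7 to 11 did for the other 4. Among the 8 themselves, Il10ra and Il4ra had the highest r, 0.92. These values describe 7 libraries in 4 groups. Each companion gene was picked by them, so a replicate order or split like that of its member is no separate support.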

How the data were processed

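RNA was extracted with TRIzol from 7 samples of cultured macrophages and sequenced. The authors deposited 1 table per library with TPM of 23337 genes, each summing to 1000000. Per the submitters' processing notes, mm10 was the genome build. The sources used here do not give the aligner, quantifier, annotation or strand setting. Depth is unknown, so no counting interval is given.

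From the deposited TPM, log2(TPM + 1) was computed, genes with a mean of at least 1 TPM were kept (11096), and limma 3.58.1 (R 4.3.3) fitted the group means over all 7 libraries, with trended moderation of the variances (residual df 3, prior df 7.3). For each of 5 comparisons, p-values were adjusted by Benjamini-Hochberg, with a threshold of 0.05. The steps were tested on simulated data. Named genes are the 8 members, Tgm2, Xist, genes of the lists (some are not reported here), and those most correlated with a member (5 for Il10, 3 for each other). The members and lists were chosen with earlier results of these data known. Alternatives were no filter, a minimum of 5 TPM, median-ratio scaling, a pseudocount of 0.1, a threshold of 0.01, each library left out, the compared groups alone, no WT LPS libraries and the replicate number as a block. Coordinates and promoters are from RefSeq (GRCm38.p6), overlaps from GENCODE M21. Figures were drawn with matplotlib 3.10.9.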

Additional observations from a re-analysis of the deposited data

Results flagged for a closer look

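Of the 14 tested mediators that interleukin-10 restrains, 3 responded to LPS differently in the genotypes, where 1.37% of all genes were called. The test was of the difference itself (the LPS change in knockout cells minus that in wild-type cells, limma, log2(TPM + 1) scale). It rests on the lone KO M0 library and on the WT LPS libraries, which hold Xist. The list of mediators was chosen with earlier results of these libraries known. For Il12b the difference was 3.02 (adjusted p 0.00497), and it was not called with no filter (adjusted p 0.108). The Il6 difference was 2.68 (adjusted p 0.0167), with adjusted p of 0.0548 to 0.106 without either WT M0 library, 0.0540 without KO LPS replicate 2 and 0.200 when low values were not filtered. For Cxcl1 it was 1.74 (adjusted p 0.0263), with adjusted p of 0.0813 and 0.114 without either WT M0 library, 0.0578 without KO LPS replicate 1, 0.0739 when WT LPS replicate 2 was left out and 0.201 with no filter. Median-ratio scaling gave adjusted p of 0.0551 for Il6 and 0.0700 for Cxcl1. The stromal marker Col1a1 was also called, at 1.79 (adjusted p 0.0460), a call lost in 8 of 10 alternatives, among them no filter (adjusted p 0.195), a minimum mean of 5 TPM (adjusted p 0.0754) and 6 fits that each left out 1 library (adjusted p 0.0708 to 0.134).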

How the results depend on the processing

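Of 479 member values under an alternative, 443 kept their direction and their side of the threshold, 21 changed sign, 10 lost a call and 5 gained one. For other named genes these numbers were 1022 of 1152, 0, 128 and 2. With no filter on low values (genes listed at 0 in every library left out), 307 genes were called for KO LPS vs WT LPS, 20 for KO M0 vs WT M0 and 10 for the interaction, and 0 of the 8 members for KO LPS vs WT LPS. A pseudocount of 0.1 gave 2 genes for KO M0 vs WT M0, 92 for the interaction and 728 for KO LPS vs WT LPS, with 0 members among the last. At an adjusted p below 0.01, 362 genes were called for KO LPS vs WT LPS, 2681 for LPS in knockout cells and 28 for the interaction. For LPS in wild-type cells 3379 genes were called at that threshold, 2 members among them. Median-ratio scaling also left 2 members there, and changed the sign of Bcl3 (0.0173) and Nfil3 (0.0177) in the interaction, of Il10ra (-0.0104) in KO M0 vs WT M0 and of Il10rb (0.0351) for LPS in wild-type cells. The fit of the compared groups alone called 40 genes for KO M0 vs WT M0. Leaving out 1 library gave 385 to 804 genes for KO LPS vs WT LPS (lowest without KO LPS replicate 2, then 428 with WT LPS replicate 2 left out and 506 without KO LPS replicate 1), 1 to 6 for KO M0 vs WT M0 (highest without WT M0 replicate 2) and 16 to 139 for the interaction (lowest without WT M0 replicate 1; 93 without WT M0 replicate 2, 72 and 64 without KO LPS replicate 1 and 2). Without WT LPS replicate 1, Il10 joined Il19 for KO LPS vs WT LPS (range 1 to 2 members) and Il19 passed in the interaction (range 0 to 1). Differences near 0 changed sign when a library was left out. For KO LPS vs WT LPS these ran from -0.20 to 0.31 for Bcl3, -0.38 to 0.0411 for Il10rb and -0.00657 to 0.17 for Nfil3. In KO M0 vs WT M0 they ran from -0.00573 to 0.14 for Bcl3, -0.27 to 0.0597 for Il10, -0.0944 to 0.28 for Nfil3 and -0.0899 to 0.0506 for Sbno2. In the interaction they ran from -0.27 to 0.24 for Bcl3, -0.0149 to 0.18 for Il10ra and -0.20 to 0.17 for Nfil3, and for LPS in wild-type cells from -0.28 to 0.32 for Il10. Except where libraries or genes were left out, the cause of these changes was not tested. Replicate differences correlated at 0.08, 0.30 and 0.18 between groups, and no label says whether replicate numbers pair the samples. With the replicate block, 1115 genes were called for KO LPS vs WT LPS in place of 795 and 5632 for LPS in wild-type cells in place of 4949, the members called were the same, and Il20rb passed for KO LPS vs WT LPS (adjusted p 0.0298). Depth is unknown, so what it limits could not be set.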
